A study of Mus musculus with 2 samples.

Results

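Pseudogenes, the disabled copies and relics of genes, were examined for trimethylation of lysine 4 of histone H3 (H3K4me3) in mouse neural progenitor cells. The members were all genes of biotype pseudogene that the RefSeq table of GRCm38.p6, the assembly behind mm10, gives for chromosomes 1 to 19. There were 8884 such genes, of which 87 had positions outside the order of their chromosome and were set aside, leaving 8797 of 46709 placed autosomal genes. A pseudogene was counted as marked when an H3K4me3 peak came within 1 kb of either of its ends. Marked pseudogenes were then divided by whether an end of a protein-coding or long non-coding RNA (lncRNA) gene lay within 1 kb of the peak. Such a gene is called a neighbour here.

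H3K4me3 is laid down by SET1 and MLL methyltransferases and lies over the start sites of active and poised genes, where CpG-rich DNA attracts the enzymes. Most mammalian pseudogenes are processed copies, made by reverse transcription of an mRNA and inserted elsewhere without the promoter of the source gene, while unprocessed pseudogenes arise by duplication and can carry promoter sequence. A peak beside a pseudogene can therefore lie at a promoter of the pseudogene or at that of another gene, and the peak list does not say which.

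The study holds 1 H3K4me3 library, labelled "con", and 1 library of input chromatin. The header of the peak file deposited for the former names its library EGF-K4 instead, and nothing in the sources used here explains the different name. Both came from neural progenitor cells of adult mice grown with EGF and bFGF, with no treatment; strain, age and the meaning of "con" are not given in the labels. The H3K4me3 library held 18156769 tags after filtering and the input 17831241, and the list gave 19265 peaks, of which 18709 lay on chromosomes 1 to 19. With 1 library of each kind there is no error between cultures, and no test between conditions or between sets of peaks was possible; the 95% intervals below are exact binomial ones (Clopper-Pearson), count genes or peaks, and hold counting error alone. The neural progenitor genes Sox2, Nes, Hes1, Olig2, Egfr, Fabp7 and Vim each had a peak at an end, as did 1 of 4 neuronal, 0 of 4 microglial, 2 of 4 endothelial and 0 of 2 blood genes.

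The sequences below show how closely a marked pseudogene and another promoter can lie. Each is the RefSeq promoter window of 250 bases before to 50 bases after an annotated start site that falls inside a peak counted at a pseudogene (GRCm38.p6, read 5′ to 3′ on the strand of the gene). Capitals mark the bases that lie inside the annotated span of the pseudogene.
Mospd3 promoter with Gm7285, chr5:137601010-137601309, minus strand: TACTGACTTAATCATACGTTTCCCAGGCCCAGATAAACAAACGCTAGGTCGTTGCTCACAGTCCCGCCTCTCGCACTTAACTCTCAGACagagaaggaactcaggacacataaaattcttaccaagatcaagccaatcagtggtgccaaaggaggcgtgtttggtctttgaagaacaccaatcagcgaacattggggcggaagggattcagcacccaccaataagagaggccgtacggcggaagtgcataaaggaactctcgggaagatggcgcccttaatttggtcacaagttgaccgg
Zfp94 promoter with Gm44513, chr7:24316617-24316916, minus strand: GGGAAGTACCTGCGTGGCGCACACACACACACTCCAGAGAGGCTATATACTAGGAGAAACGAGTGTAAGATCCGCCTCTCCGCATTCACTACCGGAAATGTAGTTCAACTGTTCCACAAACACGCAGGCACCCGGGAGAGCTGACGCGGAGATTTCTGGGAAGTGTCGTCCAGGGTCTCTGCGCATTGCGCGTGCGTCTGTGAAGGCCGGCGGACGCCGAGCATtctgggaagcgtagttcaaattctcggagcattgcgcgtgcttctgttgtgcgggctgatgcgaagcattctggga
Exoc4 promoter with Gm1401, chr6:33248878-33249177, plus strand: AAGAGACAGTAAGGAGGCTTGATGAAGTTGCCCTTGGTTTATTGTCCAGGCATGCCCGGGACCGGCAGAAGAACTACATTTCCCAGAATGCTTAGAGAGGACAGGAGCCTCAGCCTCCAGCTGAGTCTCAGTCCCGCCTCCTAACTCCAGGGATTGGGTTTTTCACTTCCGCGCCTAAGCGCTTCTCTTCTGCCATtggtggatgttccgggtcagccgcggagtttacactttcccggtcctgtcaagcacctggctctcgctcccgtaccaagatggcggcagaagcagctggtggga
H2bc3 promoter with H2ac5-ps, chr13:23746484-23746783, plus strand: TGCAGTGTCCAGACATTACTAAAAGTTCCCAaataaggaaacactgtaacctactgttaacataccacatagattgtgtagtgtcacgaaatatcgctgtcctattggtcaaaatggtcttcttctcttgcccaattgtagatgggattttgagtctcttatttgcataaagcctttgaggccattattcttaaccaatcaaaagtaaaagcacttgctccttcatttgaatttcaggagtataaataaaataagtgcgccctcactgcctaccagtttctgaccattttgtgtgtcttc
Cox7a2 promoter with Gm51685, chr9:79759804-79760103, minus strand: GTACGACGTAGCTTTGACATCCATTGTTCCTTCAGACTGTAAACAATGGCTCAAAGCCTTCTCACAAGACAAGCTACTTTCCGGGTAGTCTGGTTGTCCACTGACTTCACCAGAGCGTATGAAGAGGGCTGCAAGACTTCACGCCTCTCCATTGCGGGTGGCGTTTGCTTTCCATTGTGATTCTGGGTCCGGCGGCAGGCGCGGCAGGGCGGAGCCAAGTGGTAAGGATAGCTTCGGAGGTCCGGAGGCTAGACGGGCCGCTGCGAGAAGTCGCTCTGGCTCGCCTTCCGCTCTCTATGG
Fez1 promoter with Gm27219, chr9:36832490-36832789, plus strand: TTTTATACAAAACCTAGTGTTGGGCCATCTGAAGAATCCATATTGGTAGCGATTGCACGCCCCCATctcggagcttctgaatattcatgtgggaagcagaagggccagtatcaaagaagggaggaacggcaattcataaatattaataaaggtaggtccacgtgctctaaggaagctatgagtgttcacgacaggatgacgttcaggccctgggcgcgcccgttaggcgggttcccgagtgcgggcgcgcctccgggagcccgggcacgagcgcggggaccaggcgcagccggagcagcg
The pseudogene Gm7285 took up 89 of the 300 bases of the window at Mospd3, Gm44513 took up 224 bases at the zinc finger gene Zfp94, and Gm1401 took up 196 bases at Exoc4, which encodes a subunit of the exocyst. At the histone H2B gene H2bc3 the first 31 bases belonged to the histone pseudogene H2ac5-ps. The window of Cox7a2, which encodes a subunit of cytochrome c oxidase, lay with all 300 bases inside Gm51685. At Fez1, a gene of axon growth, 66 bases lay inside Gm27219. The start sites of Cox7a2 and Fez1 shown here are internal to their genes, so these peaks had no neighbour by the rule on gene ends. The ratio of observed to expected CG dinucleotides, which is low in most of the genome, was 0.757 at Mospd3, 1.05 at Zfp94, 0.546 at Exoc4, 0.281 at H2bc3, 0.833 at Cox7a2 and 0.985 at Fez1.

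Few pseudogenes carried H3K4me3. Of the 8797 pseudogenes, 182 had a peak at an end, or 2.07% (95% interval 1.78 to 2.39). By the same rule 58.1% of 20558 protein-coding genes, 20.5% of 12322 lncRNA genes and 32.9% of all placed autosomal genes were marked. RefSeq lists pseudogenes with evidence of transcription under a biotype of their own, and 58 of these 427 were marked (13.6%, interval 10.5 to 17.2). None of 176 pseudogenes of immunoglobulin and T cell receptor gene segments had a peak (0.0%, interval 0 to 2.07). The pseudogene share depended on how closely the peak had to lie. It was 1.28% with the peak summit inside the window, 1.03% where the peak overlapped the pseudogene itself, an alternative chosen after seeing the data, and 3.97% with windows of 2500 bp. At the edge of the window, Gm23099 and Gm19253 had peaks 970 and 960 bp from an end (fold enrichments 53.1 and 45.57) and were counted, whereas Gm7286 and Gm6336 had peaks at 1008 and 1013 bp (38.87 and 32.02) and were not. The peaks of all 4 also lay at an end of a coding gene.

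The 182 marked pseudogenes divided almost evenly by neighbour. A neighbour lay within 1 kb of the peak at 99 (54.4%, interval 46.9 to 61.8), and none did at 83 (45.6%), which is 0.944% of all pseudogenes (interval 0.752 to 1.17). No pseudogene fell into both sets. The peaks numbered 184, or 0.983% of autosomal peaks, with 104 in the first set and 80 in the second. Other autosomal peaks also had such a neighbour more often than not, 11764 with 1 and 6761 without. The peaks at pseudogenes held 1.04% of the tags in autosomal peaks, and the 80 without a neighbour held 0.153%. Each of 3 peaks was shared by 2 pseudogenes, namely Gm7535 with Gm9481, Gm19105 with Gm19167, and Gm3621 with Gm4844. Conversely H2ac5-ps had 3 peaks, and Gm13836, Gm14018 and H2ac14 had 2 each.

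The share of marked pseudogenes was highest close to a coding or lncRNA gene end. With the nearest such end at most 1 kb from the pseudogene, 62 of 478 were marked (13.0%, interval 10.1 to 16.3), and with it at 1 to 2 kb 35 of 364 (9.62%). The share was 1.68% at 2 to 5 kb, 1.24% at 5 to 20 kb and 1.15% at 20 to 100 kb. None of the 1231 pseudogenes over 100 kb from a coding or lncRNA end was marked (interval 0 to 0.299%). The 842 pseudogenes with an end within 2 kb were divided by whether any peak lay within 1 kb of at least 1 such end. Where 1 did, 93 of 126 were marked (73.8%, interval 65.2 to 81.2), and at 92 of the 93 the peak had a neighbour. Where no such end had a peak, 4 of 716 were marked (0.559%, interval 0.152 to 1.42). These intervals do not overlap, but the windows of close genes do, so 1 peak can count for both genes by construction. The contrast is therefore largely fixed by the windows and does not compare separate peaks.

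**Figure D1:**
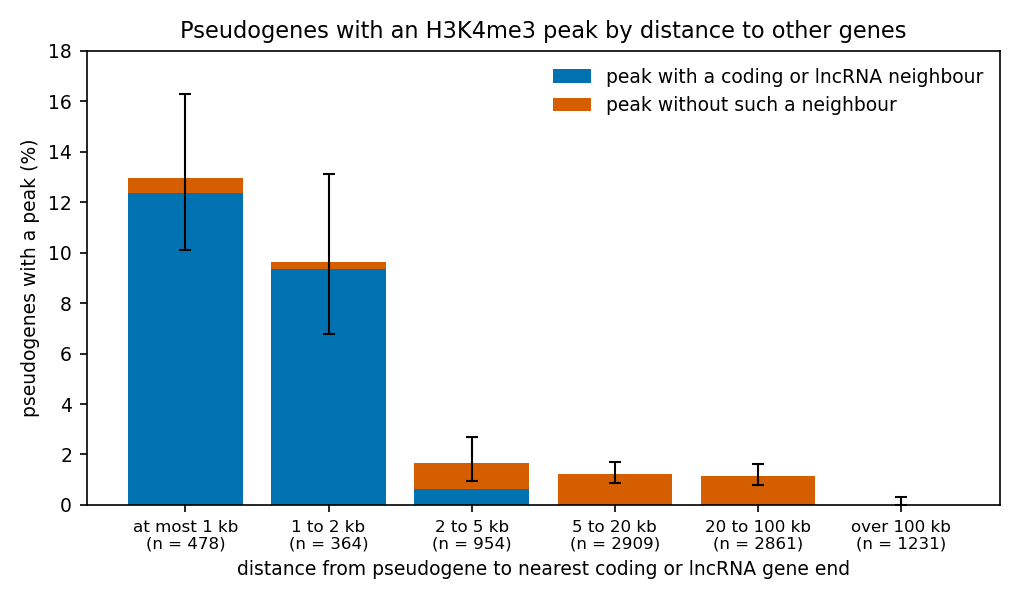
Share of pseudogenes with an H3K4me3 peak (y axis, percent) by distance to the nearest end of a coding or lncRNA gene (x axis, with the number of pseudogenes). Bars are divided by whether the peak had a coding or lncRNA neighbour, and whiskers are exact 95% binomial intervals of the whole bar; the share fell from 13.0% within 1 kb to 1.68% at 2 to 5 kb and was 0 of 1231 beyond 100 kb.

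Peaks with a neighbour were stronger and longer than peaks without one. Fold enrichment over the input, the value the authors' peak caller gave for each peak, had a median of 37.2 (quartiles 24.6 and 45.6) with a neighbour and 12.3 (9.29 and 19.5) without. Median lengths were 2201 and 934 bp, median tag counts 354 and 48.5, and median tags per kb 152 and 53.9. Neighbours were sought within 1 kb of the edges of the peak, so a longer peak took in a longer stretch. The part of this in the differences was not tested. A fold enrichment of 30 or more was reached by 74 of 104 peaks with a neighbour (71.2%, interval 61.4 to 79.6) and by 5 of 80 without (6.25%, interval 2.06 to 14.0). The sets overlapped at the edges: 11 peaks with a neighbour lay below the median of the other set, and 3 without a neighbour lay above the median of the first. In bulk chromatin a weak mark in all cells and a strong one in a few cannot be told apart. Both sets were set beside the other autosomal peaks of their kind. The 11764 other peaks with a coding or lncRNA neighbour had a median fold enrichment of 37.6 (quartiles 25.9 and 45.0) and a median length of 2060 bp. The 6761 other peaks without such a neighbour had a median of 10.1 (7.96 and 17.9) and 989 bp. A fold enrichment under 10 was found in 47.1% of these (interval 45.9 to 48.3) and in 31.2% of the 80 at pseudogenes (interval 21.3 to 42.6). A value of 30 or more was found in 12.7% of the 6761 (interval 12.0 to 13.6), against the 6.25% above. Peaks of 1 library are not replicates, so no p-value is given for these differences.

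**Figure D2:**
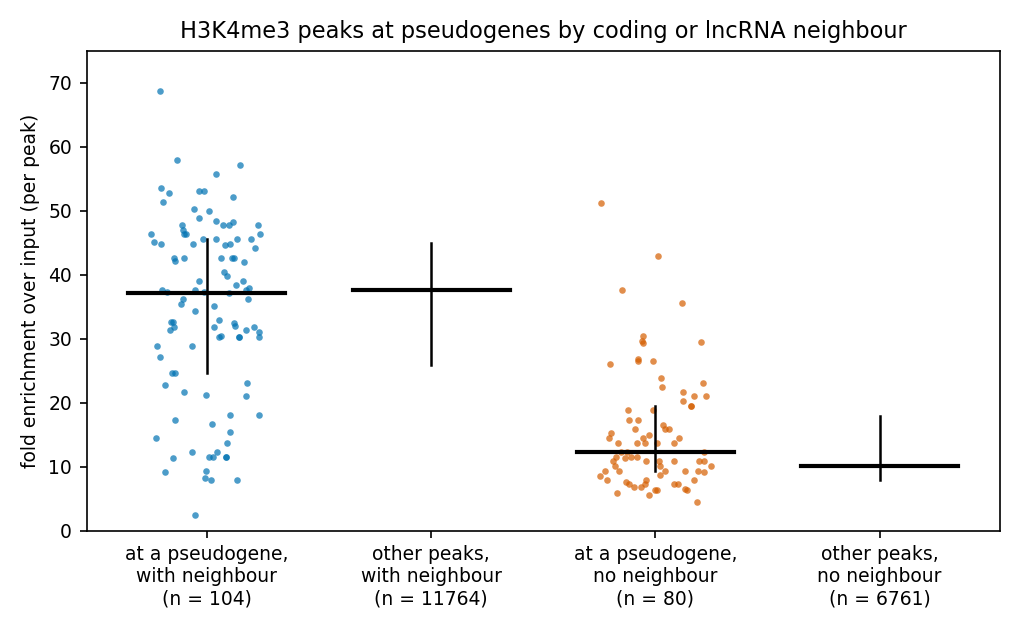
Fold enrichment over the input per H3K4me3 peak (y axis) for peaks at pseudogenes and for all other autosomal peaks, with and without a coding or lncRNA neighbour within 1 kb. Points are peaks at pseudogenes, spread sideways for visibility; thick lines are medians and thin lines run between the quartiles, with medians of 37.2 and 12.3 at pseudogenes and 37.6 and 10.1 elsewhere.

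**Figure D3:**
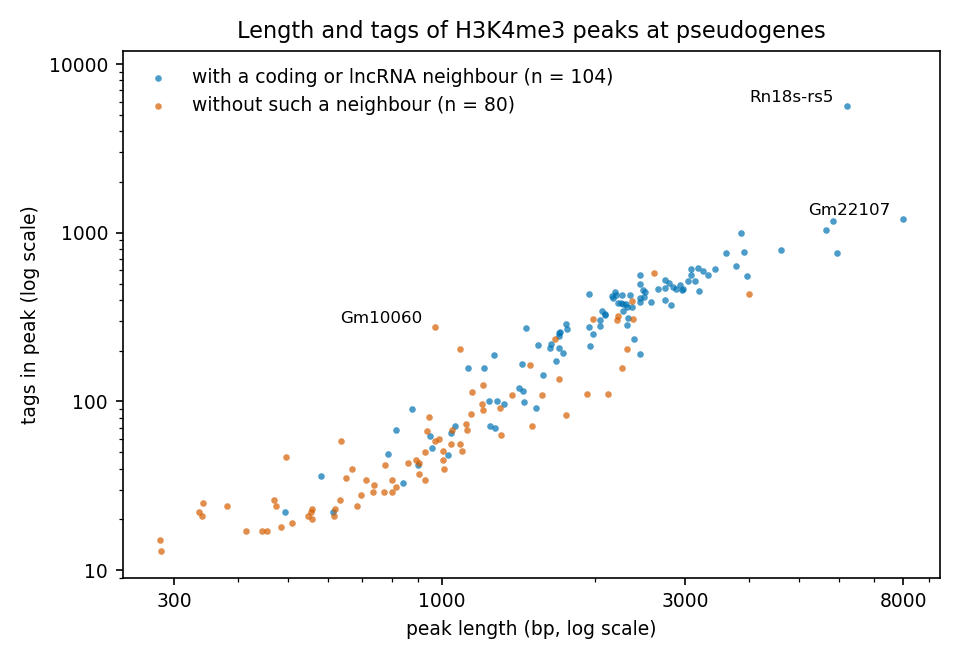
Length (x axis, bp, log scale) and tag count (y axis, log scale) of the 184 H3K4me3 peaks at pseudogenes, coloured by coding or lncRNA neighbour. Peaks without a neighbour lie mostly below 1230 bp, the upper quartile of their lengths; Rn18s-rs5 stands apart with 5649 tags, Gm22107 has the longest peak, and Gm10060 has 276 tags in 972 bp.

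Nearly all neighbours were coding genes, and the peak usually lay over a known start site. Of the 104 peaks with a neighbour 97 had a coding one (93.3%), 7 had an lncRNA gene only, and 13 had 2 or more neighbours. For 79 of these peaks the promoter table held an entry for a neighbour, and in 68 of the 79 an annotated start site fell inside the peak (86.1%, interval 76.5 to 92.8). Neither share was computed for the 11764 other peaks with a neighbour, so neither is shown to be particular to pseudogenes. Among all placed autosomal genes, coding genes were marked more often than lncRNA genes (58.1% against 20.5%). The pseudogene mostly stood aside from the summit: the peak overlapped it in 49 of 104 pairs of pseudogene and peak, the summit lay inside it in 9 (8.65%, interval 4.03 to 15.8), and the summit was a median of 985.5 bp from the nearest pseudogene end. Among these 99 pseudogenes 41 lay over a coding or lncRNA gene (41.4%, interval 31.6 to 51.8). So did 27 of the 83 without a neighbour (32.5%, interval 22.6 to 43.7) and 2456 of all 8797. The intervals of the 2 marked sets overlapped.

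The 10 strongest peaks with a neighbour each lay at an end of a coding gene. Gm22107, a pseudogene of 100 bp inside Myh9 (chr15:77840657-77840756), lay wholly under the longest peak of the set, 7978 bp with 1203 tags and a fold enrichment of 68.71. Myh9 encodes a heavy chain of non-muscle myosin, and its start site lay in this peak. Gm8034 stood 381 bp from a peak over the start of Syvn1 (57.86), which encodes a ubiquitin ligase of the endoplasmic reticulum. Gm29383 shared 909 bp with a peak between Zranb3, a DNA translocase gene, and R3hdm1 (57.14). The peak near Gm7418 (55.69) covered starts of Ciapin1 and Coq9, genes of iron-sulphur protein assembly and of coenzyme Q synthesis.

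The next peaks followed the same layout. Gm7692 was 898 bp from a peak of 53.52 at Chordc1 and Gm51667, and Gm25364 was 811 bp from one of 52.8 at Gga3, a clathrin adaptor gene, and Mrps7, a mitochondrial ribosomal protein gene. LOC108167485 was covered to 93.0% by a peak of 53.1 at Thap12 and the lncRNA gene Gm15506. Gm20277 lay inside Tasor2, 913 bp from a peak of 52.07 over a start of that gene. Gm17949 lay 262 bp from a peak of 51.35 at Gtf2f1, which encodes a subunit of the transcription factor TFIIF. In 7 of these 10 strongest cases, the window edge case Gm23099 at Mark4 included, the peak did not touch the pseudogene. The 86 marked pseudogenes with a neighbour that ranked between the 10 highest and the 3 lowest had fold enrichments from 8.28 to 50.34, with a median of 36.7.

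Long peaks at pseudogenes also had neighbours. Gm5777 lay 10 bp from a peak of 5939 bp with 762 tags and a fold enrichment of 37.93, which covered the start of Fabp7, the brain fatty acid-binding protein gene of radial glia and neural progenitors. Gm46140 shared 475 bp with a peak of 5646 bp at Msl2, a gene of a histone acetyltransferase complex (42.18). Gm36566 was covered to 68.0% by a peak of 5834 bp at an end of a coding gene (45.52).

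The lowest fold enrichment of all 18709 autosomal peaks lay at a pseudogene. Rn18s-rs5, a sequence related to the 18S ribosomal RNA gene, lay inside the lncRNA gene AY036118 and wholly under a peak of 6206 bp on chromosome 17. That peak held 5649 tags, the most of any autosomal peak (the next held 4359), with a fold enrichment of 2.43 (the next lowest was 3.76). Fold enrichment is taken over the local background of the input, so these values go with a high background at this site. The other weak peaks with a neighbour were those of Ck-ps3, at the lncRNA gene Gm41453, and Gm18529, at a protocadherin gene, each with a fold enrichment of 7.96 and with 22 and 33 tags.

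Summits of peaks without a neighbour lay closer to the pseudogene. The summit was inside the pseudogene in 26 of 83 pairs (31.3%, interval 21.6 to 42.4), and its median distance from the nearest pseudogene end was 477 bp (quartiles 182.5 and 1060.5) against 985.5 bp with a neighbour. These peaks were also shorter, and the part of length in this was not tested. The peak overlapped the pseudogene in 43 pairs (51.8%), close to the 47.1% with a neighbour, and these intervals overlapped (40.6 to 62.9 and 37.2 to 57.2). The nearest coding or lncRNA end was a median of 15281.5 bp from the peak; 10 of the 80 peaks had one within 5 kb and 30 within 10 kb. Median fold enrichment was 11.8 in those 30 and 13.0 in the other 50. A coding or lncRNA gene covered part of 25 of the 80 peaks. An annotated internal start site fell in 4 of the 77 peaks on chromosomes with promoter entries (5.19%, interval 1.43 to 12.8). The 77 include peaks that no coding or lncRNA gene covered, so this base is unlike that used for peaks with a neighbour. The 4 were the peaks at Gm51685 in Cox7a2 (35.54), Gm27219 in Fez1 (26.44), Gm8702 in Mlc1, an astrocyte membrane protein gene (20.97), and Gm6296 in Cast, the calpastatin gene (18.8). In 5 of the 80 peaks an end of another kind of gene lay within 1 kb.

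**Figure D4:**
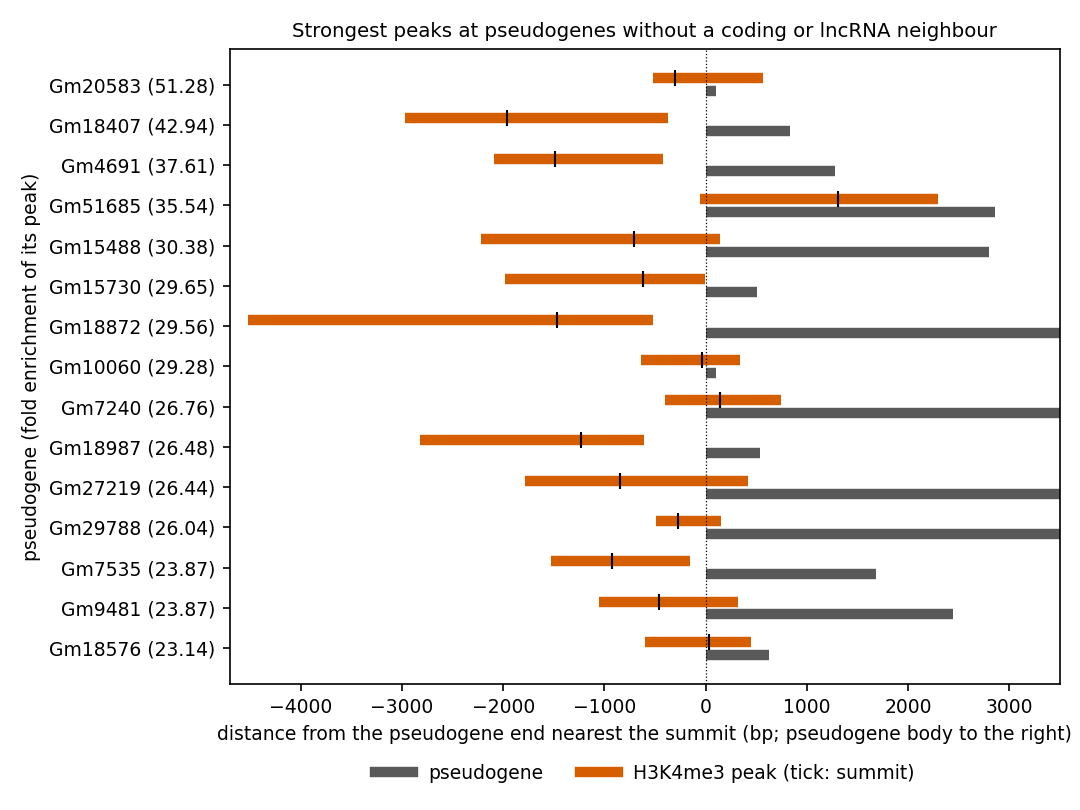
Position of the H3K4me3 peak (orange, summit as a tick) and of the pseudogene (grey) for the 15 pseudogenes of highest fold enrichment without a coding or lncRNA neighbour, with the fold enrichment in brackets. The x axis is distance in bp from the pseudogene end nearest the summit; grey bars at the right edge run on, and peaks at Gm18407 and Gm4691 stop 375 and 420 bp short of the pseudogene while those at Gm20583 and Gm10060 cover it.

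The strongest peak without a neighbour lay at a very short pseudogene on chromosome 8. Gm20583 (chr8:20297324-20297428), of 105 bp, lay wholly under a peak of 1086 bp with 204 tags and a fold enrichment of 51.28, and the nearest coding or lncRNA end was 35609 bp away. Gm10060 (chr8:19784746-19784850) had the same length and lay under a peak of 972 bp with 276 tags (29.28). Gm20584 (chr8:20424592-20424696), again of 105 bp, lay 6 bp from a peak of 497 bp with 47 tags (15). These are the only 3 pseudogenes of exactly 105 bp on chromosome 8, all were marked, and of 4 such pseudogenes on all autosomes 3 were marked. The peaks at Gm20583 and Gm20584 also lay within 1 kb of an end of a transcribed pseudogene, 6820431F20Rik and 2610005L07Rik. Whether the 3 members share sequence was not tested, and like copies can exchange reads. They were singled out after their values were seen.

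Other strong peaks without a neighbour stood beside or across a pseudogene end. Gm18407 was 375 bp from a peak of 2602 bp with 579 tags (42.94), which also lay at the proline tRNA genes n-TPagg2 and n-TPcgg2. Gm4691 was 420 bp from a peak of 1670 bp (37.61), with no coding or lncRNA end for 16076 bp. At Gm51685 the summit lay 1310 bp inside the pseudogene. Gm15488 shared 143 bp with a peak of 2366 bp (30.38), 5578 bp from an end of Mier3. Gm15730, inside Sri, a calcium-binding protein gene, stood 6 bp from a peak with a fold enrichment of 29.65. Gm18872 and Gm18987 lay inside Dpf3, a chromatin remodelling gene, and Tbc1d30, beside peaks of 29.56 and 26.48 that were 51154 and 40094 bp from the nearest coding or lncRNA end. The peak at Gm18872 was the longest of the set, at 3999 bp.

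The peak at Gm27219, over the Fez1 start shown above, was 2205 bp long with 304 tags (26.44). Gm7240 spans 112471 bp on chromosome 13, and its peak of 1149 bp lay at 1 end with the summit 146 bp inside (26.76). The peak at Gm29788 was 636 bp long with 58 tags (26.04). Gm7535 and Gm9481 overlap each other and shared a peak of 109 tags (23.87). The summit at Gm18576 lay 38 bp inside the pseudogene (23.14). The weakest peaks without a neighbour were those at Gm6214 (5.84), Gm3257 (5.57) and Gm31222 (4.42), with 29, 51 and 29 tags; the one at Gm3257 also lay at an end of the microRNA gene Mir344-2. The other 65 had fold enrichments from 6.3 to 22.41, with a median of 10.8.

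Pseudogenes were also grouped by symbol, and each share is to be read beside the 2.07% of all pseudogenes. Predicted genes, named Gm and a number, made up 7210 of the 8797 and 164 of the 182 marked (2.27%, interval 1.94 to 2.65). Of 560 olfactory and vomeronasal receptor pseudogenes 1 was marked (0.179%, interval 0.00452 to 0.991), Vmn2r-ps18, with a neighbouring zinc finger gene, Zfp978, at its peak (9.17). None of 29 cytochrome P450 pseudogenes was marked (interval 0 to 11.9%). Of 8 zinc finger pseudogenes 1 was marked (interval 0.316 to 52.7%), Zfp520-ps, wholly under a peak of 1115 bp without a neighbour (15.91). Of 7 RIKEN clones 1 was marked (interval 0.361 to 57.9%), 4930431P19Rik, at a peak over the start of Tmem9b (48.46). The remaining symbols with no family held 3 marked members of 165 (1.82%, interval 0.377 to 5.22), namely LOC108167485, Casp16, named as a caspase (34.38), and Rn18s-rs5.

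Among the 4 histone pseudogenes 2 were marked (interval 6.76 to 93.2%, beside 2.07% of all pseudogenes), both with an H2B gene as neighbour. With 4 members this share is little constrained. Histone genes of the large cluster on chromosome 13 lie close together, and H2A and H2B genes often share a promoter between them. H2ac5-ps lay wholly under a peak between H3c3 and H2bc3 with 144 tags and a fold enrichment of 20.97, with further peaks of 16.63 and 12.3 on either side. H2ac14 had peaks of 13.74 and 12.3, the latter over the start of H2bc14.

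Ribosomal protein pseudogenes, the classic processed copies, seldom had a peak, as with pseudogenes in general, while nearly all coding genes of the family did. Of 274 ribosomal protein pseudogenes 3 had a peak (1.09%, interval 0.226 to 3.17), against 77 of 80 coding genes named Rpl or Rps on the autosomes (96.2%). The interval holds the 2.07% of all pseudogenes. For 272 of the 274 the source gene could be matched by name, and all 57 of these source genes had a peak, with a median fold enrichment of 46.3 counted once per pseudogene. Rpl30-ps3 lay inside Fnbp4, 189 bp from a peak over its start (45.14), and Rpl35a-ps7 lay 904 bp from a peak at the start of Pdia4, a protein disulphide isomerase gene (37.62). Rpl38-ps1 was the only 1 of the 3 without a neighbour, 715 bp from a weak peak of 559 bp with 23 tags (9.4). None of these 3 peaks overlapped the pseudogene.

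Other pseudogenes that carry the name of a coding gene gave a like share. Outside the ribosomal proteins, for 327 pseudogenes the symbol without its ps ending named a coding gene, 226 genes in all. The named gene had a peak for 274 of them, with a median fold enrichment of 45.6 counted once per pseudogene, and 3 of the 274 pseudogenes were marked (1.09%, interval 0.226 to 3.17). This interval holds the 2.07% of all pseudogenes. Of the 53 whose named gene had no peak, none was marked (interval 0 to 6.72%), and the intervals overlapped. The 3 marked members were Tpd52-ps (20.97, named gene 55.69), Fabp3-ps1 (10.85, named gene 14.47) and Eif2s3x-ps1 (22.84, named gene 39.78). The first 2 of these had no neighbour. The nearest coding or lncRNA end lay 2091 bp from the peak at Tpd52-ps, at Abce1, and 24911 bp from that at Fabp3-ps1. The summit at Tpd52-ps lay inside the pseudogene. The peak at Eif2s3x-ps1 overlapped its pseudogene by 16 bp and lay at Zfp707. Among all symbols ending in ps outside the gene families above, these 3 included, 7 of 535 were marked (1.31%, interval 0.528 to 2.68), and this interval too holds the 2.07%. They also include Atp5l2-ps beside a peak at Cwc25, a splicing factor gene (47.73), and Aqp10-ps covered to 25.4% by a peak at Atp8b2, a phospholipid flippase gene (30.24).

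Marked shares by length and place varied less than those by distance. Pseudogenes over 5000 bp were marked in 4.62% of 692 (interval 3.18 to 6.47) and those of 501 to 1000 bp in 1.51% of 3387 (interval 1.12 to 1.98). The windows at both ends overlap in a short pseudogene and lie apart in a long one. Long pseudogenes were thus searched over a longer stretch by construction, and the part of this in the shares was not tested. Of 496 pseudogenes of up to 150 bp 13 were marked (2.62%), 8 with a neighbour and 5 without. Their fold enrichments ran from 28.93 at Gm23592 to 68.71 at Gm22107 in the former, and from 6.4 at Gm23100 to 51.28 at Gm20583 in the latter. Pseudogenes over a coding or lncRNA gene were marked in 2.77% of 2456 (interval 2.16 to 3.5) and those outside in 1.8% of 6341 (interval 1.49 to 2.16); for peaks without a neighbour these shares were 1.1% and 0.883%, with overlapping intervals. By chromosome the share ran from 1.11% on chromosome 5 (interval 0.363 to 2.58) to 3.88% on chromosome 17 (interval 2.28 to 6.14). These are the extremes, and their intervals overlapped. On chromosome 17, 12 of the 17 marked pseudogenes had a neighbour.

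Promoters under the peaks with a neighbour were CpG-rich like those under other peaks. The 86 annotated start sites inside these peaks, from 78 genes, had a median ratio of observed to expected CG of 0.821 (quartiles 0.642 and 0.962) over the window of 300 bases. It was 0.791 for 12962 start sites in other autosomal peaks and 0.389 for all 31396 autosomal promoters in the table, which include both. The motif GGGCGG, the core of a GC box, was found on either strand in 67.4% of the 86, in 67.9% of start sites in other peaks and in 36.0% of all promoters. CCAAT, on either strand, was found in 44 of the 86 (51.2%), in 37.2% of start sites in other peaks and in 37.3% of all promoters. Some genes gave more than 1 of the 86 start sites, and this difference was not tested. Matches of the 2 motifs can share bases. At the 5 start sites in peaks without a neighbour, from 4 genes, the median CG ratio was 0.655.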

How the data were processed

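One H3K4me3 library and 1 input library of cultured adult mouse neural progenitor cells were available, and the authors' peak list of the H3K4me3 library was analysed. Per the file header, the authors called peaks with MACS 1.4.2 against the input (p cutoff 1e-05, at most 1 tag per position, the larger library scaled towards the smaller); the submitters' processing notes name MACS2 2.1.0 and mm10. The aligner, and how it treated reads that fit several places, are not given in the sources used here; pseudogenes have like copies, so tags at them are uncertain in that respect. The deposited tag counts per peak are not normalized; the deposited fold enrichment is a ratio over the input, the deposited score is -log10 of the p-value times 10, and the deposited false discovery rate is in percent. A site below the cutoff is not listed.

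Peaks were joined to RefSeq genes (GRCm38.p6) with Python 3.11.15 and pandas 2.3.3, which was tested on simulated peaks. Table rows whose start fell back within a chromosome, 348 over chromosomes 1 to 19, X and Y, were left out; what sequence they belong to is not given in the table. The gene table has no strand, so both ends were used; start sites and sequences came from the RefSeq promoter table, which does not hold every gene. The members, lists and naming rule were chosen with earlier results of these data known. Named were the 15 highest and 3 lowest pseudogenes by fold enrichment without a neighbour, and the 10 highest and 3 lowest with one. Also named were up to 3 per family, 2 on each side of the 1 kb bound and the 5 with the widest peak. The rule added up to 5 where a single peak came within 1 kb of both ends. Any other pseudogene named, those with a printed promoter included, was chosen after its values were seen. Alternatives changed the window, overlap, p cutoff, chromosomes, biotypes and kind and distance of neighbour.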

Additional observations from a re-analysis of the deposited data

How the results depend on the processing

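The differences between peaks with and without a neighbour kept their direction under all 13 alternatives tried, 2 of them added after seeing the data. The difference in median fold enrichment, 24.9 as reported, ran from 20.9 to 25.9, and that in median length, 1268 bp as reported, from 1144 to 1312 bp. The share of pseudogenes with a peak, 2.07% as reported, left its 95% interval under 6 of 9 alternatives. It was 1.52% with windows of 500 bp, 3.97% with 2500 bp, 1.28% with the summit inside the window, 1.77% with a -log10 p of at least 10, 2.55% with all pseudogene biotypes, and 1.03% where the peak had to overlap the pseudogene. The share of marked pseudogenes with a neighbour, 54.4% as reported, left its interval under 3 of 12, at 63.0% with windows of 2500 bp, 46.0% with the summit inside the window and 62.2% with a -log10 p of at least 10. Under the other alternatives both shares stayed inside their intervals. No paired analysis was possible because each kind of library has 1 sample. The effect of depth on the count of marked pseudogenes was not tested. The peak with the fewest tags at a pseudogene held 13, and a pseudogene without a called peak is not shown to lack the mark.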
